A study of Mus musculus with 48 samples.

Results

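The data described here are the signals of 10 mouse genes of iron handling and metal binding in immature oligodendrocytes and microglia of newborn mice that had received the cytokine interleukin 1 beta (IL1B) or phosphate-buffered saline (PBS). The genes were Trf, Tfrc, Slc11a1, Fth1, Ftl1, Slc40a1, Cp, Hmox1, Mt1 and Mt2. Their probes were taken by name: every non-control probe of the array whose gene name was one of the 10 was used, whatever its signal. The list of 10 genes itself was drawn up with earlier results of these data known. The shares of called genes below therefore describe this list and are no test of it. This gave 17 probes of 55681 and 10 gene names of 32053. Of the 10 genes, 6 had more than 1 probe, and each gene is described by its brightest probe over all arrays, called its representing probe, with the other probes given separately.

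The study compared O4+ cells, a population of oligodendrocyte progenitors late in their development and of immature oligodendrocytes, with CD11B+ cells, or microglia, on 48 one-colour microarrays, 1 array for each sample. There were 8 groups of 6 samples: either cell type at postnatal day 5 (P5) or 10 (P10), from pups given PBS or IL1B. All pups were male and of an outbred stock that the labels name swiss and the methods OF1, and none carried a transgene. IL1B was given into the peritoneum at 10 ng per g body weight, 2 times a day from P1 to P4 and 1 time at P5, and the control pups received PBS on that schedule. The P5 cells were taken within hours of the last injection, which the labels put at 2 h and the methods at 4 h, and the P10 cells 5 days after it. Both cell types were separated one after the other from the same brains with antibody-coated magnetic beads, and brains were pooled for each sample according to the methods. Nothing in the labels ties a sample number to a litter or a day, so the p-values measure the spread between these samples.

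Cells take up iron bound to transferrin through the transferrin receptor, keep it inside ferritin, and release it through ferroportin, while metallothioneins are small cysteine-rich proteins that bind zinc, copper and cadmium. In inflammation iron is withheld from the circulation: macrophages keep it, and several of these genes are known to respond to cytokines or to metals. In the brain, oligodendrocytes are the cells richest in iron and ferritin and the main source of transferrin, and iron serves enzymes they need to make myelin.

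Signals are given as the log2 of the processed signal after quantile normalization, over the 24 arrays of a cell type unless stated otherwise, and a difference of 1 on this scale is 2-fold. A gene was called changed when limma gave its representing probe a Benjamini-Hochberg adjusted p under 0.05 over all 55681 probes and the ratio of the group medians was over 1.5 in either direction. The representing probes of all 10 genes were well above background on 48 of 48 arrays, and no spot was saturated. Among the arrays, 1 stood apart, replicate 3 of the CD11B+ IL1B samples at P5, and the results that rest on it are given with and without it. The arrays lay on 9 slides, P5 and P10 arrays shared none, and age therefore could not be separated from slide. The PBS arrays of the cell types at P10 shared no slide either. Cell type could therefore not be separated from slide in that comparison.

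Markers of other cells moved with the groups and stand beside the results below as measured. A list of 13 microglial genes, all above background in O4+ samples, had a mean log2 signal of 12.69 to 13.35 in the PBS O4+ samples at P5 and of 14.05 to 14.52 in the IL1B samples, with 10 of 13 called higher. At P10 the same list ran from 11.77 to 12.48 and from 12.21 to 12.87 in the O4+ samples. Over all CD11B+ samples of both ages it ran from 15.76 to 16.47. A list of neutrophil and monocyte genes, of which 7 had probes, went from 3.10 to 3.83 in the PBS samples up to 5.60 to 9.53 in the IL1B O4+ samples at P5. Of these 7 genes, Ccr2, Ngp, Retnlg and Mmp8 were not well above background on any of those PBS arrays. The same list in CD11B+ cells at P5 ran from 9.83 to 11.05 with PBS and from 13.74 to 14.31 with IL1B. The oligodendrocyte lineage list lay between 14.27 and 15.65 in O4+ samples and between 9.28 and 11.60 in CD11B+ samples, so the labelled cell types carried their own markers. In sorted bulk samples, fewer cells of a type and less RNA per cell cannot be told apart.

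**Figure D1:**
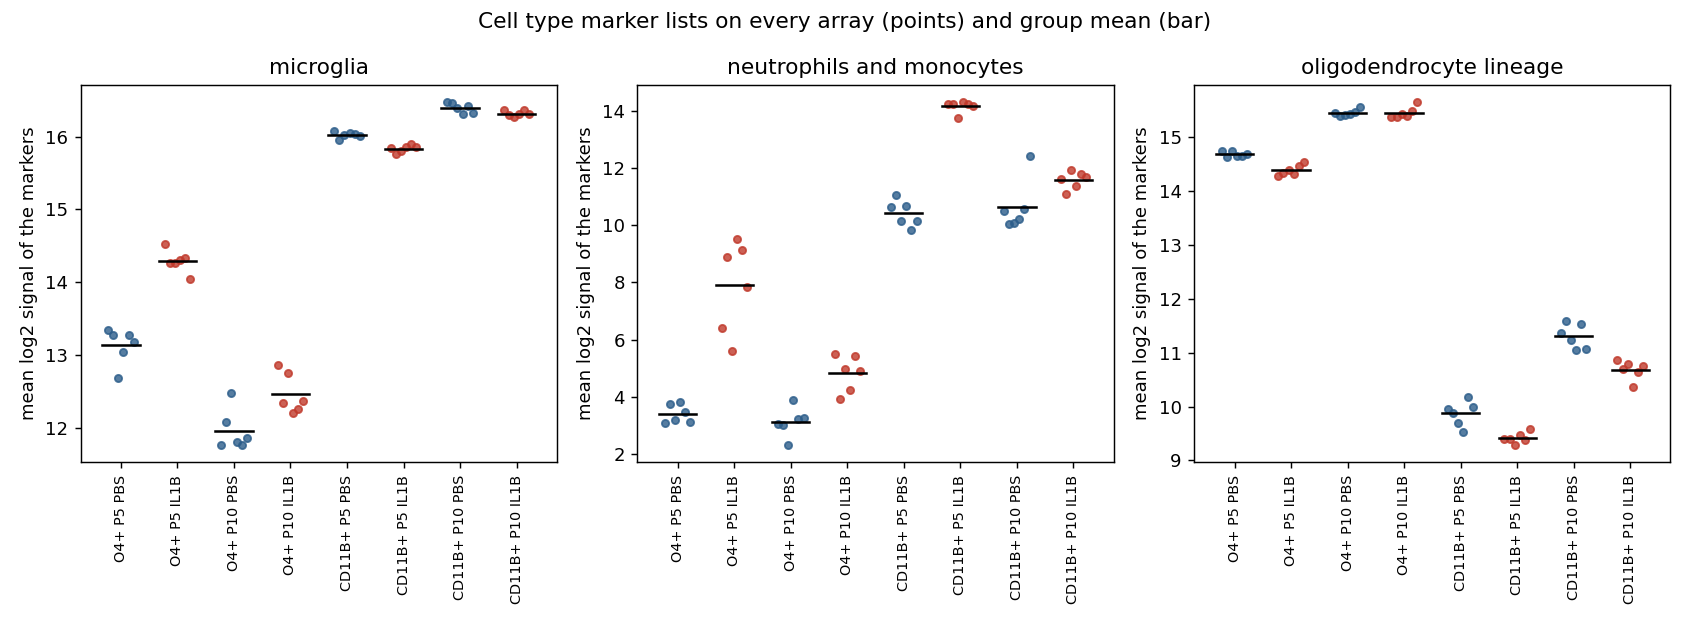
Mean log2 signal of the microglial, the neutrophil and monocyte, and the oligodendrocyte lineage marker lists (vertical axes) on each array (points, blue PBS and red IL1B) in the 8 groups, with the group mean as a bar. The IL1B O4+ samples at P5 lay above the PBS samples for the microglial list (14.05 to 14.52 against 12.69 to 13.35) and for the neutrophil and monocyte list (5.60 to 9.53 against 3.10 to 3.83).

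IL1B changed most of these genes in O4+ cells at P5. Trf, Slc11a1, Cp, Hmox1, Mt1 and Mt2 were higher and Tfrc was lower, so that 7 of the 10 genes were called, where 4.91% of all probes were called (3.44% higher and 1.47% lower). The folds ran from 1.95 for Hmox1 to 3.67 for Slc11a1, and Tfrc was 2.12-fold lower. The median log2 difference over the 10 genes was 1.00, against -0.04 over all probes. The PBS and IL1B samples did not overlap for 8 of the 10 genes, against 11.5% of all probes.

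In CD11B+ cells at P5, Slc11a1, Cp and Mt2 rose and Tfrc and Slc40a1 fell with IL1B, 5 of 10 genes where 9.3% of all probes were called (4.06% higher and 5.25% lower). Tfrc was 2.99-fold lower and Mt2 2.09-fold higher. The median over the 10 genes was 0.27, against -0.01 over all probes, and the groups did not overlap for 6 genes, against 15.8% of probes. Without replicate 3 of the IL1B samples the count of called genes was again 5.

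At P10 few IL1B differences were called. Slc11a1 in O4+ cells at P10 was 1.91-fold higher and no gene was lower, 1 of 10 genes where 3.9% of all probes were called (2.48% higher and 1.42% lower). For CD11B+ cells at P10 limma called 0 of 10 genes, where 2.17% of all probes were called. There 6 genes had an unadjusted p under 0.05, 2 an adjusted p under 0.05 with a smaller fold, and the methods' t-test called 0. The PBS and IL1B samples did not overlap for 2 genes in O4+ cells, against 6.23% of probes, and for 1 gene in CD11B+ cells, against 3.88%.

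The IL1B response differed between the ages. In O4+ cells the difference between the P10 and the P5 response passed the test (adjusted p under 0.05) for 9 of the 10 genes, where 13.1% of all probes passed. With the slide as a block 7 genes passed. The difference was more positive at P10 for Tfrc and more negative for 8 genes, where 5.36% of probes passed in that direction, the exception being Slc40a1 (0.34, adjusted p = 0.394). In CD11B+ cells it passed for Tfrc, Slc40a1 and Mt2, 3 of 10 genes where 16.9% of probes passed (6.31% more negative, as Mt2 was). Between the cell types at P5 the response of 7 genes was more positive in O4+ than in CD11B+ cells, where 6.95% of probes passed in that direction, and none was more negative, against 3.78% of probes. These 7 were Slc11a1, Ftl1, Cp, Hmox1, Trf, Mt1 and Mt2. At P10 the response of Fth1, Trf and Mt1 was more negative in O4+ cells, where 7.58% of probes passed in all and 3.67% in that direction.

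The cell types were also compared in PBS pups. On the scale normalized over all 48 arrays, 7 genes were lower and Tfrc was higher in O4+ than in CD11B+ cells at P5, where 41.6% of all probes were called (19.8% higher and 21.9% lower), and the groups of all 10 genes were apart, against 42.4% of probes. At P10, 4 genes were lower and Tfrc was higher, where 42.4% of probes were called (22.2% higher and 20.2% lower), and 8 genes had groups apart, against 43.5% of probes. The 5 of 10 genes called at P10 were thus a share near that of all probes. Between P5 and P10 in PBS O4+ cells, Trf, Fth1 and Mt1 rose and Slc11a1, Slc40a1 and Hmox1 fell, 6 of 10 genes where 16.8% of probes were called (7.84% higher and 8.97% lower). In PBS CD11B+ cells Mt1 and Mt2 fell, 2 of 10 genes where 8.26% of probes were called (4.63% higher and 3.64% lower).

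**Figure D2:**
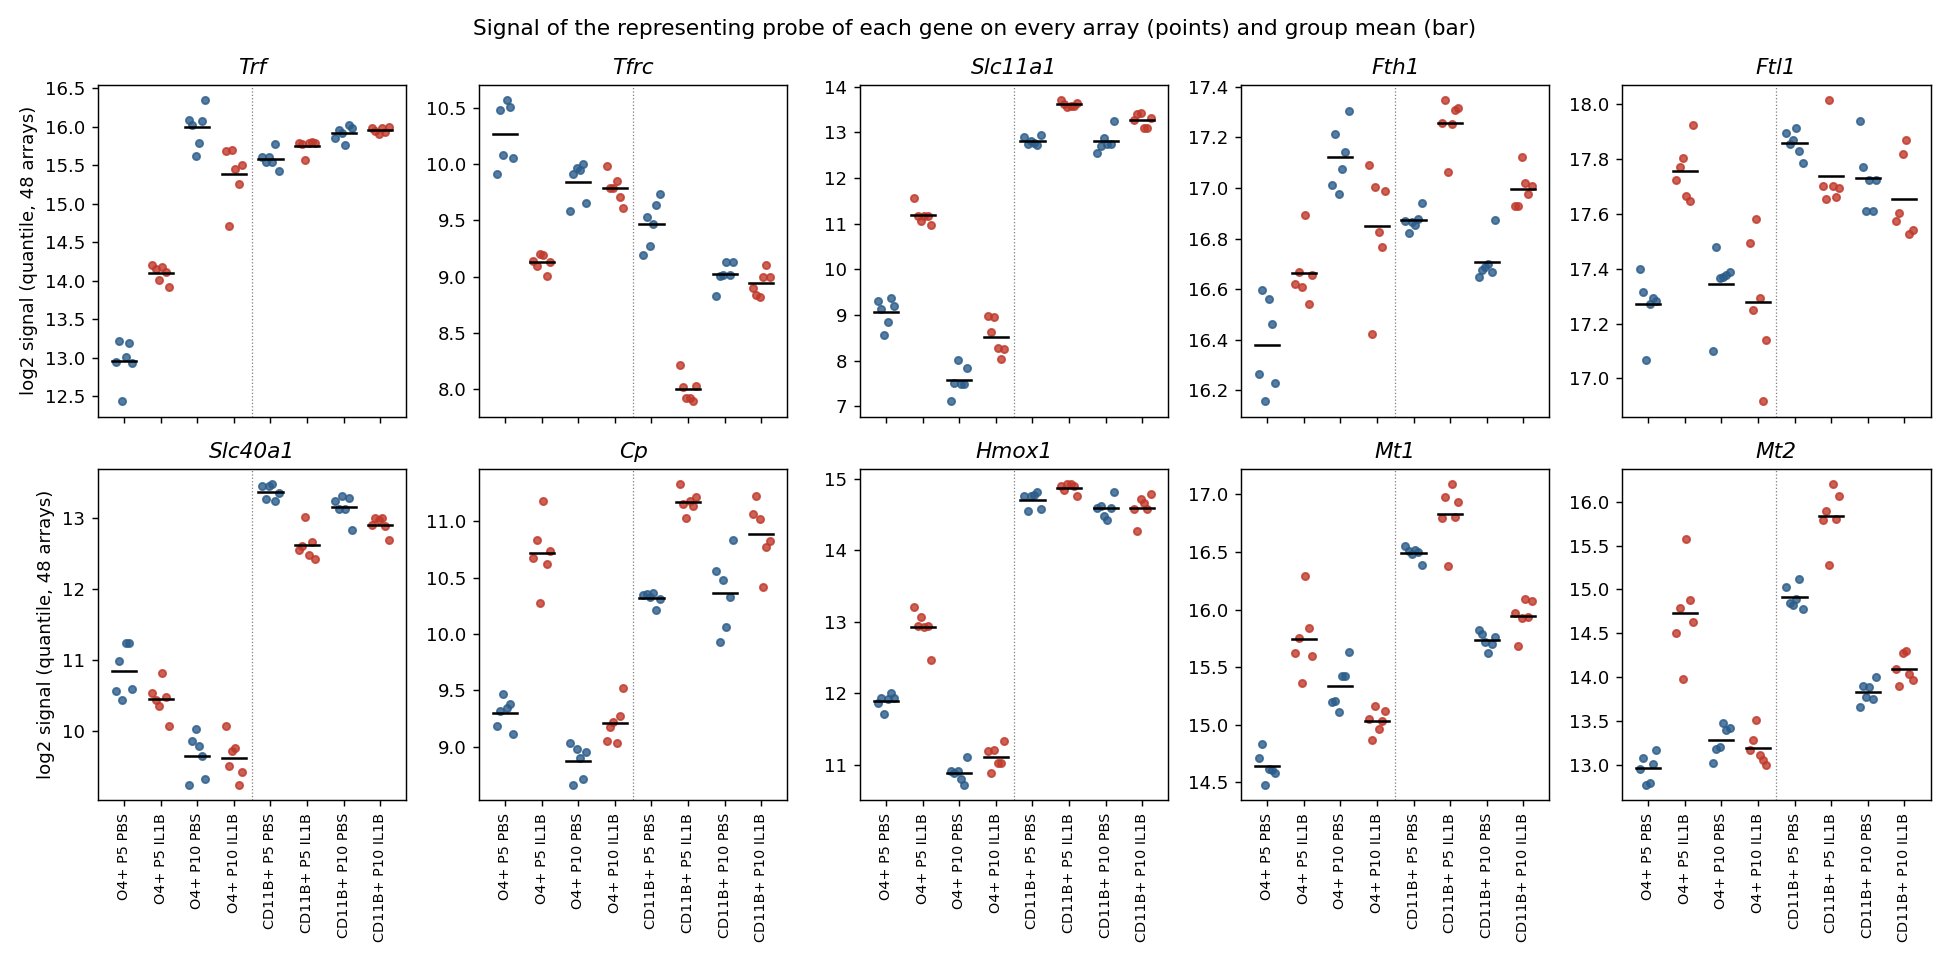
Log2 signal normalized over 48 arrays (vertical axes, a separate scale for each gene) of the representing probe on each array (points, blue PBS and red IL1B) in the 8 groups, with the group mean as a bar. Slc11a1, Slc40a1 and Hmox1 were higher in all CD11B+ samples than in all O4+ samples, and Tfrc was lowest in the CD11B+ IL1B samples at P5.

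Ordering the 8 group means on the 48-array scale set the genes apart by how far cell type, age and treatment spread them. Slc11a1 had the widest span, from 13.62 ± 0.06 (SD) in CD11B+ IL1B samples at P5 to 7.57 ± 0.32 in O4+ PBS samples at P10, and neighbouring groups overlapped only between the CD11B+ PBS samples of both ages and between the O4+ PBS samples at P5 and the O4+ IL1B samples at P10. For Hmox1 and Slc40a1 all 4 CD11B+ groups stood above all O4+ groups, and the CD11B+ neighbours overlapped. For Trf the lowest means were 12.96 ± 0.28 in O4+ PBS and 14.10 ± 0.11 in O4+ IL1B samples at P5, and the other 6 groups, up to 15.99 ± 0.25 in O4+ PBS samples at P10, overlapped from neighbour to neighbour. Tfrc ran from 10.27 ± 0.28 in O4+ PBS samples at P5 down to 8.00 ± 0.12 in CD11B+ IL1B samples at P5, the last of which was the only group clear of its neighbour. The means of Fth1 lay within 17.26 ± 0.10 and 16.38 ± 0.19, and no group of it was clear of the next. Mt2 was highest in CD11B+ IL1B samples at P5 (15.84 ± 0.32), clear of the next mean but overlapping the O4+ IL1B samples at P5, and lowest in O4+ PBS samples at P5 (12.96 ± 0.16), which overlapped the O4+ samples of P10. Mt1 was lowest in that same group, at 14.64 ± 0.12, clear of the next.

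Trf encodes transferrin, the protein that carries iron outside cells and a gene that oligodendrocytes switch on as they mature. Its probe lies at chr9:103111207-103111266 (mm9, minus strand). In PBS O4+ cells the log2 signal ran from 12.45 to 13.21 with a median of 12.97 at P5 and from 15.49 to 16.17 with a median of 15.89 at P10. This was the largest change with age among the 10 genes, 7.55-fold (log2 difference 2.88 ± 0.14 (SE), adjusted p = 5.17e-08). CD11B+ samples held Trf signal too, with a range of 15.54 to 15.92 at P5 and of 15.90 to 16.18 at P10, a difference of 0.35 ± 0.07 that was below the fold threshold (adjusted p = 0.00272). On the 48-array scale Trf was 6.05-fold lower in O4+ than in CD11B+ cells at P5. At P10 the cell types differed by 0.08 ± 0.11 (adjusted p = 0.589), and the sign turned to -0.29 with the 75th percentile scaling. The oligodendrocyte lineage markers of the CD11B+ samples moved with age as well, 10 of 13 being higher in the older PBS samples, and their part in the Trf signal of those samples was not tested.

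With IL1B the Trf signal in O4+ cells at P5 ran from 13.89 to 14.16 with a median of 14.10. Every IL1B sample was above every PBS sample of that age, and the rise was 2.19-fold (1.11 ± 0.11, adjusted p = 6.76e-05). At P10 the direction was the other one, with IL1B samples from 14.65 to 15.56 and a median of 15.35. That difference was -0.56 ± 0.16 and 1.45-fold, below the fold threshold (adjusted p = 0.0458). It was called under 3 other preparations of the signals, at -0.81 with the 75th percentile scaling, -0.59 with normexp background correction and -0.79 in the authors' own table. The change in the response from P5 to P10 was -1.68 ± 0.20 (adjusted p = 1.08e-05). In CD11B+ cells the IL1B differences were 0.18 at P5 (adjusted p = 0.0915) and 0.05 at P10. Without replicate 3 of the IL1B samples the former was 0.22 (adjusted p = 0.023). The Trf response was larger in O4+ than in CD11B+ cells by 0.97 ± 0.14 at P5 (adjusted p = 4.04e-05) and more negative by 0.65 ± 0.18 at P10 (adjusted p = 0.0332), and the latter call was lost in 7 of 24 fits that each left out 1 sample. The microglial markers of the O4+ samples also rose with IL1B at P5, and their part in the Trf rise was not tested.

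Tfrc encodes the transferrin receptor, whose messenger RNA is known to be broken down when cells hold enough iron. Its representing probe lies at chr16:32632255-32632314 (mm9, plus strand). Among O4+ cells at P5 the PBS samples ran from 10.08 to 10.68 with a median of 10.42, and the IL1B samples from 9.22 to 9.40 with a median of 9.34. All IL1B samples lay below all PBS samples, and the difference was -1.07 ± 0.11 (adjusted p = 5.52e-05). In CD11B+ cells the medians were 9.31 with PBS and 7.73 with IL1B, with ranges of 8.99 to 9.56 and 7.65 to 7.97. This fall of 1.53 ± 0.10 (adjusted p = 1.35e-06) held without replicate 3 at -1.51. Among the 10 genes Tfrc had the largest fall in both cell types. The response of O4+ and CD11B+ cells differed by 0.33, which did not pass the test (adjusted p = 0.213).

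At P10 the Tfrc signals of PBS and IL1B samples overlapped in both cell types. The medians were 10.09 and 9.96 in O4+ cells (difference -0.05, adjusted p = 0.763) and 8.80 and 8.74 in CD11B+ cells (difference -0.08, adjusted p = 0.550). The change of the response from P5 to P10 passed the test in both, at 1.02 ± 0.14 in O4+ cells (adjusted p = 3.87e-05) and 1.45 ± 0.12 in CD11B+ cells (adjusted p = 8.77e-08). With age in PBS samples Tfrc differed by -0.39 ± 0.12 in O4+ cells and -0.47 ± 0.10 in CD11B+ cells, neither past the fold threshold. Tfrc was the only one of the 10 genes called higher in O4+ than in CD11B+ cells, 1.74-fold at P5 and 1.89-fold at P10. At P5 that call was lost with the slide as a block, where the difference was 0.33 ± 0.26 (adjusted p = 0.379). Signs of endothelial cells, which carry the transferrin receptor, moved the same way with IL1B at P5: 5 of 8 endothelial markers were called lower in either cell type. The endothelial list ran from 10.31 to 11.28 in PBS and from 9.82 to 10.39 in IL1B O4+ samples, and in CD11B+ cells from 9.70 to 10.29 and from 9.07 to 9.55. In CD11B+ cells at P5 the mural cell markers Pdgfrb, Rgs5 and Acta2, 3 of 6 on that list, were called lower as well, and 1 of 7 erythroid markers, Hba-a1 (-0.80), and in O4+ cells none of either list was called. The erythroid list ran from 8.02 to 9.07 with PBS and from 7.47 to 8.24 with IL1B in CD11B+ cells at P5. The mural list in those samples ran from 7.13 to 9.19 and from 6.68 to 7.25, with means of 7.76 and 6.95. In O4+ cells at P5 the mural list ran from 8.10 to 9.37 with PBS and from 7.04 to 8.98 with IL1B. Its means there were 8.75 and 7.93, and each of the 6 mural markers was lower with IL1B, although none was called. The erythroid list means in O4+ cells at P5 were 7.72 with PBS and 7.91 with IL1B. The change of the IL1B response from P5 to P10 in CD11B+ cells was also more positive for 5 of 7 erythroid markers, among them Hba-a1 (1.88), and for 3 of 6 mural markers. The part of these cells in the Tfrc values was not tested.

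Slc11a1 encodes NRAMP1, a transporter of macrophages that moves iron and manganese out of the phagosome. Its probe lies at chr1:74432161-74432220 (mm9, plus strand). In PBS samples at P5 it ran from 12.72 to 12.95 with a median of 12.79 in CD11B+ cells and from 8.78 to 9.57 with a median of 9.37 in O4+ cells. On the 48-array scale it was 12.4-fold lower in O4+ cells at P5 and 38.1-fold lower at P10, the largest difference between the cell types among the 10 genes at either age. In CD11B+ cells IL1B moved the median to 13.63 at P5 (range 13.57 to 13.73), above every PBS sample (0.82 ± 0.05, adjusted p = 1.13e-06). At P10 the medians were 12.74 and 13.31, a difference of 0.48 ± 0.12 and 1.48-fold, just under the fold threshold (adjusted p = 0.0367) and called without replicate 4 of the IL1B samples (0.51).

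In O4+ cells IL1B moved Slc11a1 more than any other of the 10 genes at P5, with IL1B samples from 11.06 to 11.62 and a median of 11.24. This was 3.67-fold above PBS (1.99 ± 0.14, adjusted p = 5.30e-06), and the response was larger than in CD11B+ cells by 1.32 ± 0.16 (adjusted p = 4.60e-06). At P10 the PBS samples ran from 7.36 to 8.26 with a median of 7.75 and the IL1B samples from 8.28 to 9.18 with a median of 8.68. Slc11a1 was the one gene still called in O4+ cells at that age (0.92 ± 0.19, adjusted p = 0.0121). The response changed between the ages by -1.06 ± 0.24 (adjusted p = 0.00490), or -1.15 with the slide as a block (adjusted p = 0.0506). In PBS O4+ cells it was 3.07-fold lower at P10 than at P5 (-1.45 ± 0.17, adjusted p = 3.95e-05). The microglial markers of the O4+ samples moved in the same directions, with 10 of 13 higher with IL1B at P5 (median 1.08), 7 of 13 higher at P10 (median 0.64) and 11 of 13 lower with age in PBS (median -1.24). The neutrophil and monocyte list in O4+ cells at P5 ran from 3.10 to 3.83 with PBS and from 5.60 to 9.53 with IL1B. In CD11B+ cells at P5 that list ran from 9.83 to 11.05 with PBS and from 13.74 to 14.31 with IL1B. The microglial list there ran from 15.96 to 16.08 with PBS and from 15.76 to 15.90 with IL1B. The part of either list in the Slc11a1 values of either cell type was not tested.

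Fth1 and Ftl1 encode the heavy and the light chain of ferritin, the shell that stores iron. Their probes lie at chr19:10059485-10059544 (plus strand) and chr7:52713309-52713368 (minus strand) of mm9. In PBS O4+ cells Fth1 ran from 15.99 to 16.42 with a median of 16.19 at P5 and from 16.77 to 17.09 with a median of 16.90 at P10. It rose 1.63-fold with age (0.71 ± 0.09, adjusted p = 7.00e-05), with no overlap. Ftl1 stayed between 16.86 and 17.25 in these samples (0.07, adjusted p = 0.483). In PBS CD11B+ cells the age differences were -0.17 ± 0.05 for Fth1 and -0.10 for Ftl1.

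No IL1B difference of the representing probe of either chain passed the fold threshold. In O4+ cells at P5, Ftl1 ran from 16.86 to 17.17 with PBS and from 17.39 to 17.74 with IL1B, apart but 1.35-fold (0.46 ± 0.07, adjusted p = 0.000736). Fth1 there differed by 0.27 ± 0.09, 1.20-fold (adjusted p = 0.0464), with overlapping groups. Microglial markers rose with IL1B in these O4+ samples as well, and their part in the Ftl1 and Fth1 values was not tested. In CD11B+ cells the groups were apart for Fth1 and not for Ftl1. At P5 the Fth1 signals of the PBS samples lay between 17.01 and 17.14 and the IL1B samples between 17.26 and 17.57 (0.40 ± 0.05, adjusted p = 0.000262). At P10 they lay between 16.83 and 17.07 and between 17.13 and 17.33 (0.31 ± 0.05, adjusted p = 0.0153). Fth1 was the one gene whose groups did not overlap in CD11B+ cells at P10. Ftl1 differed by -0.09 at P5 (adjusted p = 0.329) and -0.08 at P10 in these cells.

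Between the cell types the response of Ftl1 at P5 differed by 0.61 ± 0.09 (adjusted p = 6.98e-05), a call lost with the 75th percentile scaling at 0.44. The response of Fth1 at P10 was more negative in O4+ cells by 0.56 ± 0.12 (adjusted p = 0.00681), with IL1B differences of -0.26 in O4+ and 0.31 in CD11B+ cells, neither of them called. Both ferritin chains were lower in O4+ than in CD11B+ cells in PBS pups at P5, by 1.41-fold for Fth1 and 1.49-fold for Ftl1. These values were just under the threshold, while the second Ftl1 probe was 3.47-fold lower at P5 and 3.35-fold lower at P10. The representing probes passed it under other scalings, with differences of -1.39 and -1.54 with the 75th percentile and -1.5 and -1.64 in the authors' table. At P10 Fth1 differed by 0.41 ± 0.07 on the quantile scale, but the sign turned to -0.02 with the 75th percentile and to -0.15 in the authors' table.

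Slc40a1 encodes ferroportin, the only known exporter of iron from cells, and inflammation is known to lower it in macrophages. Its probe lies at chr1:45965255-45965314 (mm9, minus strand). Among CD11B+ cells at P5 the PBS samples ran from 13.25 to 13.50 with a median of 13.42 and the IL1B samples from 12.41 to 13.02 with a median of 12.57. Ferroportin was 1.80-fold lower with IL1B, with no overlap (-0.78 ± 0.10, adjusted p = 0.000159), and the difference was -0.86 without replicate 3. At P10 the medians were 13.20 and 12.94, a difference of -0.26 that did not pass the test (adjusted p = 0.108), and the change of the response between the ages was 0.52 ± 0.13 (adjusted p = 0.00892). With the slide as a block that change was 0.73 (adjusted p = 0.0533).

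In O4+ cells Slc40a1 lay from 10.55 to 11.31 with PBS and from 10.22 to 10.91 with IL1B at P5, and the groups overlapped (-0.37 ± 0.16, adjusted p = 0.145). The O4+ and CD11B+ responses differed by 0.36, which did not pass the test either (adjusted p = 0.321). In PBS O4+ cells it was 2.01-fold lower at P10, where it ran from 9.44 to 10.18 (-1.11 ± 0.17, adjusted p = 0.000374). On the 48-array scale it was 6.06-fold lower in O4+ than in CD11B+ cells at P5 and 11.0-fold lower at P10. The fall with age in O4+ cells stood beside that of the microglial markers given above, whose part in it was not tested.

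Cp encodes ceruloplasmin, a copper-carrying oxidase that loads exported iron onto transferrin and rises in the acute-phase response. Its representing probe lies at chr3:19889071-19889130 (mm9, plus strand). In O4+ cells at P5 it ran from 9.32 to 9.65 with PBS and from 10.41 to 11.25 with IL1B, with medians of 9.53 and 10.81 (2.43-fold, 1.32 ± 0.12, adjusted p = 2.54e-05). In CD11B+ cells the medians were 10.21 and 11.09, and the samples lay between 10.07 and 10.23 and between 10.94 and 11.26 (1.85-fold, 0.91 ± 0.06, adjusted p = 7.89e-07). Cp was thus higher in every IL1B sample than in every PBS sample of either cell type at P5, and the response was larger in O4+ cells by 0.56 ± 0.14 (adjusted p = 0.00937). That last call was lost with the 75th percentile scaling (0.35), in the authors' table (0.43) and with the slide as a block (0.61). The part of the microglial markers, which rose with IL1B in O4+ samples at P5, in the Cp rise there was not tested.

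At P10 the Cp differences were smaller or more spread. In O4+ cells all IL1B samples, from 9.25 to 9.71, were above all PBS samples, from 8.88 to 9.24, but the difference of 0.33 ± 0.09 was 1.20-fold (adjusted p = 0.0421). In CD11B+ cells the PBS samples ran from 9.77 to 10.74 and the IL1B samples from 10.29 to 11.15 (0.56 ± 0.18, adjusted p = 0.0897). That difference was called when replicate 6 of the PBS samples was left out (0.66, adjusted p = 0.030). The response in O4+ cells changed by -1.0 ± 0.15 between the ages (adjusted p = 0.000143), a call lost with the mean over both Cp probes (-0.13, adjusted p = 0.679).

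Hmox1 encodes heme oxygenase 1, the inducible enzyme that frees iron from heme. Its representing probe lies at chr8:77624207-77624266 (mm9, plus strand). In CD11B+ cells it was high in all groups, with medians between 14.64 and 14.97, and the IL1B differences were 0.18 at P5 (adjusted p = 0.0567) and 0.01 at P10. The O4+ samples at P5 ran from 11.76 to 12.05 with PBS and from 12.49 to 13.19 with IL1B. This was 1.95-fold with no overlap (0.98 ± 0.10, adjusted p = 7.20e-05), and larger than in CD11B+ cells by 0.86 ± 0.12 (adjusted p = 4.23e-05). At P10 the O4+ medians were 11.00 and 11.19 (0.21, adjusted p = 0.133), and the change of the response was -0.77 ± 0.13 (adjusted p = 0.000428). In PBS O4+ cells Hmox1 was 1.96-fold lower at P10 than at P5 (-0.96 ± 0.07, adjusted p = 8.86e-07). It was 7.10-fold lower in O4+ than in CD11B+ cells at P5 and 12.9-fold lower at P10. These directions in O4+ cells were those of the microglial markers, whose part in the Hmox1 values was not tested.

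Mt1 and Mt2 lie next to each other on chromosome 8 and encode the metallothioneins found in most tissues, which zinc, glucocorticoids and inflammatory cytokines are known to induce. Their representing probes lie at chr8:96704165-96704224 for Mt1 and chr8:96697371-96697430 for Mt2 (mm9, plus strand). In O4+ cells at P5, Mt2 ran from 12.77 to 13.15 with PBS and from 13.95 to 15.45 with IL1B, with medians of 12.97 and 14.65. It rose 3.22-fold (1.71 ± 0.20, adjusted p = 0.000160). Mt1 there ran from 14.43 to 14.77 and from 15.25 to 16.12, 1.99-fold higher (1.02 ± 0.12, adjusted p = 0.000209). No IL1B sample reached down to a PBS sample for either gene, although the IL1B samples were more widely spread. Microglial markers rose in these O4+ samples as well, and their part in the Mt1 and Mt2 values was not tested.

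In CD11B+ cells at P5, Mt2 rose 2.09-fold, from between 14.83 and 15.21 with PBS to between 15.39 and 16.37 with IL1B (1.00 ± 0.15, adjusted p = 0.000426). Mt1 differed by 0.36 ± 0.11, 1.31-fold (adjusted p = 0.0329), with overlapping groups whose medians were 16.68 and 17.06. Without replicate 3 of the IL1B samples these differences were 1.12 and 0.45. Both responses were larger in O4+ than in CD11B+ cells, by 0.77 ± 0.17 for Mt1 (adjusted p = 0.00368) and 0.84 ± 0.26 for Mt2 (adjusted p = 0.0383), and the latter call was lost in 13 of 24 fits that each left out 1 sample. With the 75th percentile scaling neither passed, at 0.52 and 0.51, nor with the slide as a block, at 0.51 and 0.47. In O4+ cells at P10 neither difference passed the test, at -0.27 for Mt1 (adjusted p = 0.0600) and -0.09 for Mt2 (adjusted p = 0.632). The responses of the 2 ages differed by -1.30 ± 0.15 for Mt1 (adjusted p = 7.97e-06) and -1.80 ± 0.23 for Mt2 (adjusted p = 1.93e-05). For CD11B+ cells at P10 the differences were 0.22 for Mt1 (adjusted p = 0.0829) and 0.28 for Mt2 (adjusted p = 0.0791). The response of Mt2 changed with age there by -0.72 ± 0.17 (adjusted p = 0.00481), a call lost in the authors' table at -0.59.

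With age in PBS pups, the representing probe of Mt1 fell in CD11B+ cells and rose in O4+ cells. In PBS CD11B+ cells Mt2 ran from 14.83 to 15.21 at P5 and from 13.67 to 14.02 at P10, 2.12-fold lower (-1.14 ± 0.08, adjusted p = 6.64e-06). Mt1 fell from between 16.57 and 16.73 to between 15.76 and 15.97, 1.73-fold (-0.79 ± 0.04, adjusted p = 2.23e-06). In PBS O4+ cells Mt1 rose 1.57-fold (0.64 ± 0.09, adjusted p = 0.000131), from a median of 14.56 to one of 15.21, a call lost without replicate 4, 5 or 6 of the P10 samples (0.58 to 0.62). Mt2 differed by 0.31 ± 0.09, 1.25-fold, and was called with the 75th percentile scaling at 0.65. The difference between the cell types, on the 48-array scale, went from 3.70-fold for Mt1 and 3.71-fold for Mt2 at P5 to 1.34-fold and 1.44-fold at P10, where neither was called on this scale. With the 75th percentile scaling both were called at P10, at -0.69 and -0.66. The second Mt1 probe was 9.48-fold lower in O4+ cells at P5 and 11.4-fold lower at P10, so the smaller difference at P10 rests on the representing probe. The interaction of age and cell type in PBS samples was not tested.

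**Figure D3:**
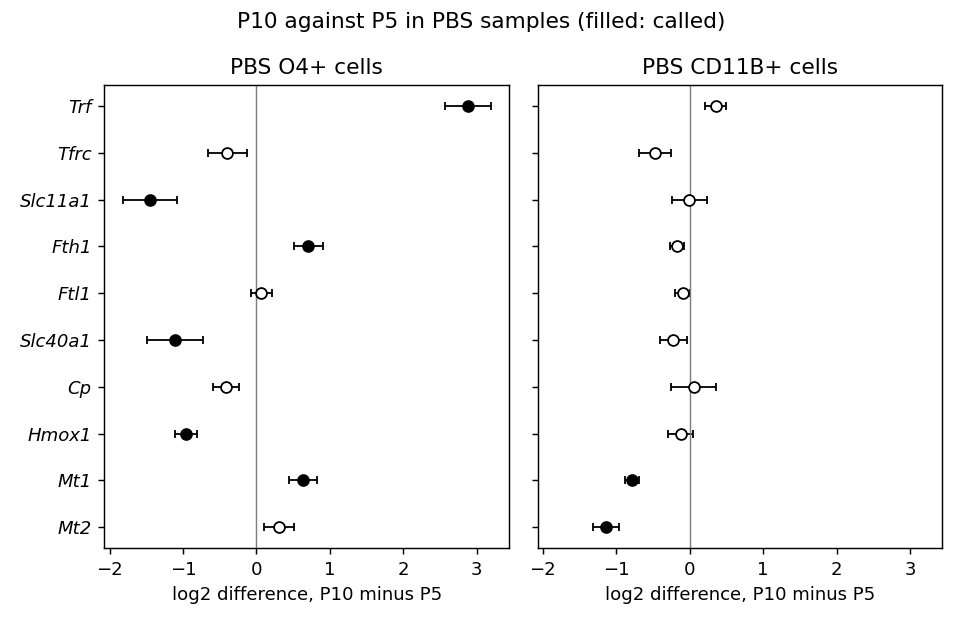
Log2 difference between P10 and P5 in PBS samples (horizontal axis) of the representing probe of each gene with its 95% confidence interval; filled points were called. Trf (2.88), Fth1 (0.71) and Mt1 (0.64) rose in O4+ cells, and Mt1 (-0.79) and Mt2 (-1.14) fell in CD11B+ cells.

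The stretches around the annotated starts of Mt1 and Mt2 are shown because both genes moved together with IL1B in O4+ cells and both are known targets of the metal-responsive factor MTF1. They come from RefSeq on build GRCm38.p6, plus strand, and capitals mark the core of the metal response element, TGCACNC or TGCGCNC on either strand.
Mt1, chr8:94178839-94179088: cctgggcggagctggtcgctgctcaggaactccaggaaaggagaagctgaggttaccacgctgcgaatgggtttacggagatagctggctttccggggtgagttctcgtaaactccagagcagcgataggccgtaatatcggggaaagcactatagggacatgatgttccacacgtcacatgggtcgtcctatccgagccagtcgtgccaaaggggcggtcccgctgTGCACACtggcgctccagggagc
Mt1, chr8:94179089-94179117: tcTGCACTCcgcccgaaaagTGCGCTCgg
Mt2, chr8:94172368-94172617: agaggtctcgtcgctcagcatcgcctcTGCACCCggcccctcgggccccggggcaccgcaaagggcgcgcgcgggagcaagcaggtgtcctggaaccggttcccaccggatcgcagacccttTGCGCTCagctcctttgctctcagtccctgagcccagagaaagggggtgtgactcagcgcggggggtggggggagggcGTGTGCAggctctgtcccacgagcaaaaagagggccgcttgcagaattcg
Mt2, chr8:94172620-94172630: tcGTGCGCAgg

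In the window of 300 bases around the start, Mt1 held 3 of these cores, at -23 to -17, 3 to 9 and 21 to 27 from the start, and Mt2 held 4, at -223 to -217, -128 to -122, -50 to -44 and 5 to 11, the last pair on the minus strand. Of all 32851 promoter windows, 25.7% held at least 1 core and 1.97% at least 3. Of the 10 genes, 7 were matched to a promoter, and Slc40a1, Hmox1 and Trf were not. Among the other matched genes only Tfrc held the core, 2 overlapping matches in 1 of its 2 windows. The antioxidant response core TGACNNNGC occurred 1 time among the matched promoters, in Mt2 at -79 to -71, and in 12.4% of all windows. The STAT motif TTCNNNGAA, found in 8.3% of all windows, was in none of them.

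For the IL1B difference in O4+ cells at P5 all probes had the same sign in 5 of the 6 genes, and the other Tfrc probes gave -1.12 and -0.89, the other Hmox1 probe 0.73, the other Trf probe 1.09 and the other Mt1 probe 1.72, all called. The other Ftl1 probe gave 0.60 and 1.53-fold, past the threshold that the representing probe missed. In CD11B+ cells at P5 the second Tfrc probe gave -1.69, and the third was not well above background on any IL1B array, so that it was at least 2.75-fold lower (adjusted p = 0.000718).

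Probes of opposite sign were found for Cp in most comparisons and for Mt1 and Ftl1 in some. With IL1B in CD11B+ cells they were Ftl1 and Cp at P5 and Ftl1, Trf and Mt1 at P10, with age in PBS samples Ftl1 in O4+ cells and Cp and Mt1 in CD11B+ cells, and between the cell types Cp at P5 and Trf and Cp at P10. The second Cp probe, at chr3:19907511-19907570 (mm9), targets another transcript of the gene by the annotation in the files. It had medians of 6.53 with PBS and 6.48 with IL1B in O4+ cells at P5 (-0.03, adjusted p = 0.816), while the representing probe rose. At P10 it rose 1.55-fold in O4+ cells (0.71, adjusted p = 0.0478). A list of 7 astrocyte genes ran from 9.09 to 9.49 with PBS and from 9.62 to 10.08 with IL1B in those samples. Of these genes Aqp4, Slc1a3, Aldh1l1 and Slc4a4 were called higher, and Gfap, Slc1a2 and Gja1 were not called. The part of astrocyte markers in the Cp values at P10 was not tested. Between the cell types the Cp probes had opposite signs: the representing probe was 2.01-fold lower in O4+ than in CD11B+ cells at P5 and 2.78-fold lower at P10, and the second probe 3.83-fold and 3.08-fold higher. In CD11B+ cells it was well above background on no more than 4 of 6 arrays in any group.

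The second Mt1 probe, at chr8:96703844-96703903 (mm9), lies upstream of the representing probe on the plus strand. In PBS CD11B+ cells it ran from 9.10 to 9.77 at P5 and from 10.06 to 10.63 at P10, and rose 1.72-fold (0.80 ± 0.13, adjusted p = 0.00109) where the representing probe fell 1.73-fold. With IL1B at P5 it rose 1.73-fold in CD11B+ cells (0.76). The fall of Mt1 with age in CD11B+ cells thus rests on the representing probe, and averaging both probes gave a difference of 0.0061.

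**Figure D4:**
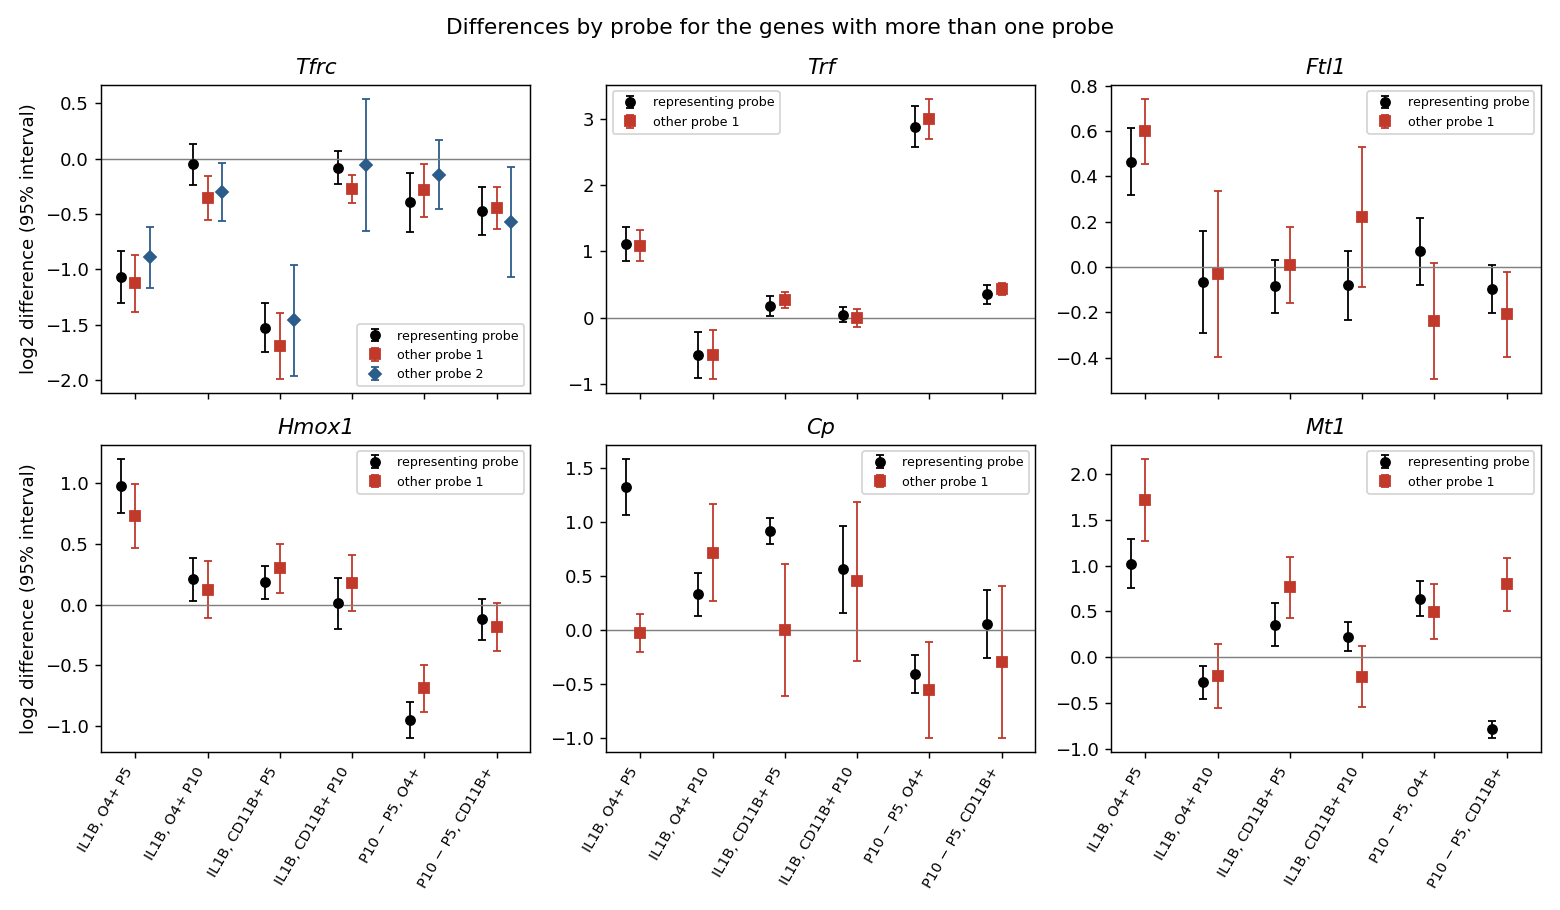
Log2 differences (vertical axes) with 95% confidence intervals of each probe of the 6 genes with more than 1 probe, in the IL1B comparisons of both cell types and ages and in the comparison of P10 with P5 in PBS samples. The probes of Trf and Hmox1 stayed close together, the second Cp probe was at -0.03 in O4+ cells at P5 against 1.32 for the representing probe, and the Mt1 probes had opposite signs with age in CD11B+ cells (-0.79 and 0.80).

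The genes whose log2 signal over the 48 arrays was most like that of each gene are given as a description, since all points share cell type, age and treatment. Slc11a1 was most like Ncf4 (Pearson r = 0.998), a subunit of the phagocyte oxidase, and Fyb (0.996), and Hmox1 most like Rac2 and Cyba (both 0.995), genes of the same oxidase. Slc40a1 was most like Igfbp4 (0.992) and Elk3 (0.990), and Tfrc most like Hspa12b (0.978) and Sox18 (0.973), genes of endothelial cells. Trf was most like Cdc42ep2 (0.958) and Trim36 (0.951), and Cp most like Cd69 (0.960), an early activation antigen of leukocytes, and Cd300lf (0.958). Mt1 was most like Plaur (0.949), the urokinase receptor, and Nfil3 (0.939), and Mt2 most like Pip5k1a (0.978) and Plaur (0.948). For the ferritin chains the highest values were lower, 0.905 for Fth1 with Adap1 and 0.827 for Ftl1 with a probe that has no gene symbol. Among the 10 genes, Mt1 and Mt2 had r = 0.93 over the 48 arrays and 0.80 after subtracting the group means, and Slc11a1 and Hmox1 had 0.99 and 0.34.

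The other genes of these pathways were counted as well, and some were called with IL1B at P5. Among 28 further genes of iron uptake, export and regulation, 3 were higher in O4+ cells at P5 and none was lower, and 4 rose and 1 fell in CD11B+ cells of that age. The list medians were -0.08 and 0.04. Lcn2, which encodes the siderophore-binding protein lipocalin 2, was 114-fold higher in O4+ cells (6.65, adjusted p = 7.94e-08) and 36.7-fold higher in CD11B+ cells. Ltf, which encodes the neutrophil iron-binding protein lactoferrin, was not well above background on any PBS array of O4+ cells at P5 and was at least 32.2-fold higher with IL1B (adjusted p = 0.000336), and 32.8-fold higher in CD11B+ cells. Both are genes of neutrophil granules, and the neutrophil and monocyte list moved with them, with 7 of 7 genes higher in either cell type. Its part in their values was not tested. Heph, a copper-dependent ferroxidase that works with ferroportin, was 2.00-fold lower in CD11B+ cells at P5.

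Among 26 genes of haem and mitochondrial iron, 1 was higher in O4+ cells at P5, and 1 was higher and 3 were lower in CD11B+ cells. Hp, which encodes the hemoglobin-binding haptoglobin, was the higher one in both, 13.7-fold and 16.2-fold. In PBS O4+ cells at P5 its mean log2 signal was 4.43, and it was well above background on 4 of 6 arrays. The neutrophil and monocyte list rose with IL1B in the same samples of both cell types, and its part in the Hp values was not tested. Alad, an enzyme of haem synthesis, was 1.79-fold lower in CD11B+ cells. Of 25 genes of zinc and copper handling, 1 was higher in O4+ cells, the zinc importer Slc39a4 (2.15-fold). In CD11B+ cells 3 were higher and 1 was lower, among them the zinc exporter Slc30a1, 1.75-fold higher, which like Mt1 and Mt2 is a target of MTF1. Of 17 antioxidant genes controlled by NFE2L2, 2 were higher in O4+ cells, Nfe2l2 itself (2.84-fold) and Osgin1 (2.11-fold), and 3 were higher in CD11B+ cells. These shares of 28, 26, 25 and 17 genes stand beside the 4.91% and 9.3% of all probes given above.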

How the data were processed

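RNA of 48 sorted cell samples was hybridised to one-colour Agilent mouse arrays, labelled with the Low Input Quick Amp kit and read with Agilent Feature Extraction. Each spot of the deposited scanner files has a processed signal intensity that Feature Extraction had already corrected for background. The deposited series table holds a linear ratio, which was checked to be the processed signal divided by each array's median (largest log2 deviation 1.86e-05), and it served as an alternative. Control spots were left out first. Among the other 59305 spots, 278 non-uniform and 5097 outlier flags over all arrays were left out, and spots were averaged to 55681 probes. The log2 of the deposited intensity was quantile-normalized within a cell type (24 arrays), or across all 48 arrays where cell types were compared, with no filter on dim probes. Tests used limma 3.58.1 in R 4.3.3 with Benjamini-Hochberg adjustment over all probes and were tested on simulated data. Comparisons were IL1B against PBS in each cell type and age, P10 against P5 and O4+ against CD11B+ cells in PBS samples, and the differences between those IL1B responses. Interactions had no fold threshold. Between 52.9 and 65.4% of probes were well above background per array, replicates of a group correlated at 0.962 to 0.994 across probes, and the number of arrays limits the precision.

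All 10 members were named, with the 2 genes of highest Pearson r each, among probes well above background on at least 24 of 48 arrays. From each pathway list and comparison, up to 2 genes called higher and 2 called lower with the largest ratio of medians could be named, if well above background on at least 6 of 12 arrays. The members and lists were chosen with earlier results of these data known. Marker lists were read only as described. Alternatives were the 75th percentile scaling, normexp correction, the authors' table, a filter on dim probes, no fold threshold, the mean over a gene's probes, the methods' t-test, folds from mean log2 values, normalization over the arrays of each fit or all 48, a joint fit of the 4 groups of each cell type, the slide, the scan day and the replicate number as blocks, and leaving out each array. Probe positions are mm9 as in the files. The P10 samples' free-text descriptions repeat the P5 wording, and their age was taken from the titles and stage.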

Additional observations from a re-analysis of the deposited data

Results flagged for a closer look

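In 10 of the 80 combinations of 8 groups and 10 genes, 1 sample lay apart from the other 5 by Dixon's criterion, which chance exceeds in about 1 of 20 groups. In O4+ cells these were Slc11a1 in replicate 1 of the P5 IL1B samples (log2 signal 11.62), Fth1 in replicate 4 of the P5 IL1B samples (16.70), Trf in replicate 3 of the P5 PBS samples (12.45) and Ftl1 in replicate 1 of the P10 PBS samples (16.89). In CD11B+ cells they were Cp in replicate 5 of the P5 PBS samples (10.07), Fth1 in replicate 6 of the P10 PBS samples (17.07) and Slc40a1 in replicate 6 of the P10 IL1B samples (12.68). The other 3 fell on replicate 3 of the CD11B+ IL1B samples at P5, with Fth1 at 17.26, Ftl1 at 18.20 and Trf at 15.69.

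The IL1B response differed between groups by a limma interaction in 22 cases. In O4+ cells the P10 response minus the P5 response was 1.02 for Tfrc, -1.06 for Slc11a1, -0.53 for Fth1, -0.53 for Ftl1, -0.77 for Hmox1, -1.68 for Trf, -1.0 for Cp, -1.30 for Mt1 and -1.80 for Mt2. In CD11B+ cells it was 1.45 for Tfrc, 0.52 for Slc40a1 and -0.72 for Mt2. The O4+ response minus the CD11B+ response at P5 was 1.32 for Slc11a1, 0.61 for Ftl1, 0.86 for Hmox1, 0.97 for Trf, 0.56 for Cp, 0.77 for Mt1 and 0.84 for Mt2. At P10 it was -0.56 for Fth1, -0.65 for Trf and -0.51 for Mt1. Age is confounded with slide in the first 2 sets.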

How the results depend on the processing

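The counts of called genes with IL1B were 7 in O4+ and 5 in CD11B+ cells at P5 whichever array was left out. At P10 in O4+ cells the count of 1 became 2 with the 75th percentile scaling, normexp and the authors' table and 3 with no fold threshold, and stayed 1 when an array was left out. In CD11B+ cells at P10 the count of 0 became 1 in the authors' table, 2 with no fold threshold and 0 to 1 when an array was left out; Cp was called without replicate 6 of the PBS samples (0.66) and Slc11a1 without replicate 4 of the IL1B samples (0.51). For age in PBS CD11B+ cells the count of 2 became 5 with no fold threshold, 1 with the mean over probes and 2 when an array was left out, and in O4+ cells it was 5 to 6. Between the cell types it was 8 to 9 at P5 and 5 to 6 at P10 with arrays left out, and 8, 8 and 9 at P10 with the 75th percentile, the authors' table and no fold threshold. Of the interactions, that of cell type at P5 went from 7 genes to 4 with the 75th percentile, the authors' table and the slide as a block. With arrays left out the counts were 6 to 7 there, 2 to 4 at P10, 9 for age in O4+ and 3 to 4 in CD11B+ cells. The 9 in O4+ cells became 7 with the slide as a block and 8 with the mean over probes.

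The mean over all probes of a gene turned the sign for Mt1 with age in CD11B+ cells (0.0061) and for Cp between the cell types at P5 (0.49) and P10 (0.13). With that mean Cp was not called in CD11B+ cells at P5 (0.45), nor Mt1 with age in O4+ cells (0.57). The 75th percentile scaling moved the median of all probes from -0.05 to -0.34 between the cell types at P5, from 0.02 to 0.21 with age in O4+ cells, from -0.02 to -0.19 with IL1B in O4+ cells at P10, and from -0.01 to 0.11 in CD11B+ cells at P5.

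Samples with the same replicate number did not deviate together in every pair (correlations from -0.026 to 0.515 in O4+ cells at P10, from 0.025 to 0.127 in O4+ cells at P5, and in CD11B+ cells from -0.064 to 0.057 at P5 and from -0.045 to 0.090 at P10), and the number was no pairing by the labels. Between the cell types, which came from the same brains, all 12 correlations in PBS samples were above 0, from 0.024 to 0.125 at P5 and from 0.032 to 0.152 at P10, and the own number was the best in 4 and 5 of 6 pairs. With the replicate number as a block the counts were 7 and 5 at P5 and 1 and 0 at P10 with IL1B, and 8 and 5 between the cell types; the one change was Mt2 between the responses of the cell types at P10 (-0.36), taking that count from 3 to 4. Within single slides the 7 called genes of O4+ cells at P5 kept their sign on both slides that held both groups, Slc11a1 at 1.88 and 2.54 and Mt2 at 1.78 and 1.49. These slides held 1 IL1B array each, against 4 and 2 PBS arrays. In CD11B+ cells at P5 the 5 called genes kept their sign on the only such slide, Tfrc at -1.84. That slide held 4 IL1B arrays against 1 PBS array. In all, 1419 values of single genes under alternatives other than leaving out an array kept direction and side of the threshold or stayed within the replicate spread, 22 fell and 51 rose past the threshold, 35 moved beyond the replicate spread and 3 called values turned sign. Uncalled values turned sign as well, among them Trf and Fth1 between the cell types at P10.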

Other observations

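With age in PBS O4+ cells, 3 of the 28 genes of iron uptake, export and regulation were higher and 6 were lower, where 7.84% and 8.97% of all probes were. Hamp2, a gene of the iron hormone family of hepcidin, was not well above background on any P5 array. At P10 it was 8.35-fold higher by the ratio of medians and at least 8.75-fold by mean log2 values. Aco1, the iron-regulatory protein 1, was 1.54-fold higher, while Bmp6, a signal that raises hepcidin in the liver, was 2.90-fold lower and the zinc and iron importer Slc39a8 2.86-fold lower. Cpox, an enzyme of haem synthesis, was 5.84-fold higher and Alad 1.81-fold higher. Mtf1, the factor that induces metallothioneins, was 2.09-fold higher in these samples. Mt1 was called higher there, with the limits given above, and Mt2 was not called (1.25-fold). Whether Mtf1 had a part in these values was not tested. In PBS CD11B+ cells the haem exporter family gene Flvcr2 was 3.12-fold lower at P10, the hemoglobin receptor Cd163 2.11-fold lower and Heph 2.13-fold lower. With IL1B at P10, the zinc and manganese exporter Slc30a10 was 2.51-fold higher in O4+ cells, and Aifm2, which protects membranes from lipid peroxidation, was 2.29-fold higher in CD11B+ cells. The PBS and IL1B samples overlapped for Aifm2, which was well above background on 4 of 6 PBS arrays there.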
